A study of Mus musculus with 16 samples.

Results

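Genes of the molecules through which GC B cells take up or display T cell help were followed in 4 cMyc+ LZ B cell subpopulations of the mouse spleen. The 10 genes, chosen by symbol from the 51912 in the deposited table, were *Cd40*, *Cd80*, *Cd86*, *Cd83*, *Cd69*, *Icosl*, *Cd274*, *Pdcd1lg2*, *Slamf1* and *Fas*. Each symbol matched 1 row, and all 10 passed the filter on low values. All mice carried cMyc gfp/gfp, a reporter in which a GFP-cMyc fusion protein is made from the endogenous locus, so no library came from mice without the reporter. Male and female mice of 6 to 15 weeks were injected intraperitoneally with SRBC, and spleens were taken at day 7. After removal of CD43+ cells, B220+ CD38low CD95+ cMycGFP+ cells were sorted into cMyc+prePB (CD69hi), cMyc+early (CD23hi CD21/35hi), cMyc+lateCD23int (intermediate for both) and cMyc+lateCD23lo (low for both). Each subpopulation had 4 libraries of total RNA, numbered 1 to 4 in the labels. The labels do not say what the number marks or whether the libraries came from separate or pooled mice, so that p-values measure the spread between these libraries, which may be technical.

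In the GC, CD40 on the B cell receives CD40L from follicular helper T cells, which is a main signal for positive selection and for cMyc induction. CD80 and CD86 are the B7 ligands of CD28 and CTLA4, ICOSL is the ligand of ICOS, and PD-L1 (*Cd274*) and PD-L2 (*Pdcd1lg2*) are the ligands of the inhibitory receptor PD-1. CD83 holds MHC class II and CD86 at the surface and marks LZ cells, SLAM (*Slamf1*) binds itself across the contact between cells, CD69 is an early activation antigen that holds S1PR1 inside the cell, and CD95 (*Fas*) is a death receptor. The comparison between subpopulations asked whether these transcripts differ along the steps into which the study divides positively selected cells. CD69 and CD95 were part of the gates. Among the cells that were not CD69hi, the study also used CD86 with CXCR4 to set DZ cells apart, so that for *Cd69*, *Fas* and *Cd86* the selection of cells can bear on the values. Bulk libraries do not tell fewer cells expressing a gene from less RNA per cell.

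None of the 10 genes had an adjusted p-value under 0.05 in the limma F test over the 4 subpopulations, where 0.408% of the 12505 tested genes had one. Before adjustment, 5 of the 10 had a p-value under 0.05 (*Pdcd1lg2*, *Cd83*, *Cd40*, *Icosl* and *Slamf1*), against 10.2% of all genes tested. The 10 genes were chosen with earlier results of these data known, so that this share does not test them as a set. With the quasi-likelihood test of edgeR on reads recovered from the deposited values, 0 had an adjusted p-value under 0.05 (0.232% of all genes), and 2 (*Cd40* and *Cd83*) an unadjusted one against 8.89% of all genes. Of the 60 pairwise values, 10 genes in 6 comparisons, 0 passed the adjusted threshold in limma and 15 had an unadjusted p-value under 0.05. Over all tested genes, these shares ran by comparison from 0.008% to 0.28% and from 3.71% to 12.7%. The lowest adjusted p of the 60 was 0.182, for *Cd40* in cMyc+prePB against cMyc+lateCD23lo. In 8 of the 15, cMyc+lateCD23lo was the lower subpopulation. These 8 share the same 4 cMyc+lateCD23lo libraries. Against cMyc+lateCD23lo, the unadjusted shares of all tested genes, in either direction, were 6.28% for cMyc+lateCD23int, 10.3% for cMyc+early and 12.7% for cMyc+prePB. The other 45 values lay between -1.50 and 1.36 on the log2 scale.

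The values are normalized counts, in which the counts of a library are scaled by its size factor. The underlying reads ranged from 19812080 to 25795815 per library, and 14650 to 15573 genes were detected. A gene at or under 3 reads, 2.48 to 3.23 normalized counts, was taken as not measurable. This floor covers counting error only, since the reads carry no molecular identifiers and PCR copies count more than once. Per kb of exon, *Cd83* was the most abundant of the 10 with a median of 23342 normalized counts per kb over the libraries. It was followed by *Cd86* at 2317, *Fas* at 2081, *Cd40* at 1012, *Slamf1* at 518 and *Cd69* at 432. The remaining 4 were far lower, with medians of 79.0 for *Icosl*, 54.7 for *Pdcd1lg2*, 18.2 for *Cd274* and 12.4 for *Cd80*. The ranges over libraries of neighbors in this order overlapped, except that all *Cd83* values were above all *Cd86* values, all *Fas* values above all *Cd40* values and all *Cd69* values above all *Icosl* values. SEs of the log2 fold changes were smallest for *Cd40*, at 0.200, and largest for *Pdcd1lg2* and *Cd80*, so that the precision differed widely among the 10 genes.

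**Figure D1:**
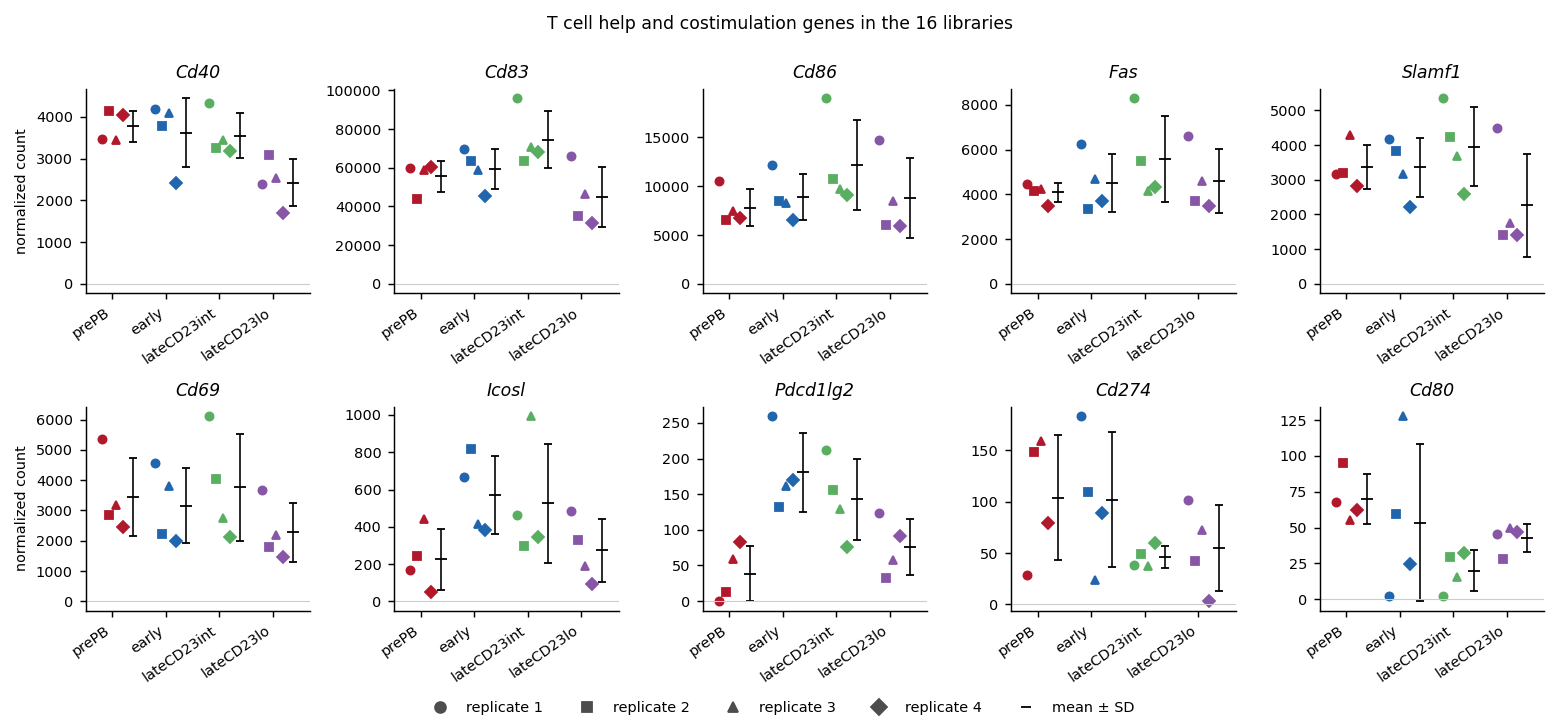
Normalized counts (vertical axes, 1 scale per gene) of the 10 genes in the 4 libraries of each subpopulation, with the symbol marking the replicate number and the bar the mean ± SD. *Cd40* was lower in cMyc+lateCD23lo than in every cMyc+prePB and cMyc+lateCD23int library, and *Pdcd1lg2* lower in cMyc+prePB than in every cMyc+early library.

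*Cd40* (ENSMUSG00000017652, GRCm38 chr2:165055627-165072948, forward strand), the receptor for CD40L, was lowest in cMyc+lateCD23lo. Its normalized counts in libraries 1 to 4 were 3467, 4147, 3449 and 4049 in cMyc+prePB and 4192, 3781, 4099.9 and 2415 in cMyc+early. They were 4332, 3261, 3445 and 3179.7 in cMyc+lateCD23int and 2398, 3078, 2542 and 1697 in cMyc+lateCD23lo. All cMyc+lateCD23lo libraries were below all of cMyc+prePB and of cMyc+lateCD23int, whereas the library of cMyc+early numbered 4 lay within the range of cMyc+lateCD23lo. The means were 3778 ± 372, 3622 ± 824, 3555 ± 530.1 and 2429 ± 569 (SD, n = 4 each) in the same order. Between cMyc+lateCD23int and cMyc+lateCD23lo the log2 fold change was 0.57, with a 95% interval of 0.15 to 0.99 (limma adjusted p = 0.699, unadjusted 0.0106). Against cMyc+lateCD23lo, cMyc+early stood at 0.58 (adjusted p = 0.317) and cMyc+prePB at 0.66 (0.24 to 1.08; adjusted p = 0.182). In all 3 comparisons cMyc+lateCD23lo was lower in 4 of 4 same-numbered libraries. None of these differences passed the adjusted threshold. Among cMyc+prePB, cMyc+early and cMyc+lateCD23int the log2 differences of *Cd40* were 0.01 to 0.09, with intervals that stayed between -0.41 and 0.51.

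The list of CD40 signalling genes (*Traf1*, *Traf2*, *Traf3*, *Traf5*, *Traf6*, *Birc2*, *Birc3*, *Map3k14*, *Tnfaip3* and *Tank*) was fully measured, with 10 of 10 tested. By limma, 0 passed the adjusted threshold in the F test or in any of the 6 comparisons, and 4 had an unadjusted p-value under 0.05 in the F test. By edgeR the counts were also 0 and 4. Over all tested genes the unadjusted shares were 10.2% by limma and 8.89% by edgeR. All 10 were on the higher side by log2 fold change in cMyc+lateCD23int against cMyc+lateCD23lo, from 0.0014 for *Birc2* to 1.63 for *Map3k14*. For *Birc2* the means were 1840 in cMyc+lateCD23int and 1864 in cMyc+lateCD23lo. The median of the 10 was 0.327 against 0.016 over all tested genes. Of the 10, 3 had an unadjusted p-value under 0.05 by limma, against 6.28% of all tested genes. The median against cMyc+lateCD23lo was 0.415 for cMyc+early and 0.468 for cMyc+prePB, again over the same cMyc+lateCD23lo libraries, where the medians over all genes were -0.005 and -0.006. On the higher side were 6 of the 10 in cMyc+early and 7 in cMyc+prePB. *Traf1*, an adaptor induced by CD40, had 1106, 1114, 1373 and 877 normalized counts in cMyc+lateCD23lo and 1691, 2307, 1999 and 1802 in cMyc+prePB, which do not overlap (F test adjusted p = 0.178 in limma). It stood at 1486 ± 217 in cMyc+early and 1815 ± 353 in cMyc+lateCD23int. Of all tested genes, 3.01% had every cMyc+prePB library above every cMyc+lateCD23lo library. *Traf5*, another adaptor of CD40, had means of 661 ± 126 (cMyc+early), 756 ± 164 (cMyc+lateCD23int) and 743 ± 329 (cMyc+lateCD23lo), against 321 ± 83.5 for cMyc+prePB (F test adjusted p = 0.174 in limma). The lowest subpopulation was thus a different one for these adaptors, and neither passed the adjusted threshold.

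*Cd83* (ENSMUSG00000015396, GRCm38 chr13:43784775-43803132, forward strand) had its highest mean in cMyc+lateCD23int and its lowest in cMyc+lateCD23lo, the subpopulations that differ in the level of CD23 and CD21/35. Its normalized counts in libraries 1 to 4 were 95904, 63535, 70889.6 and 67997 in cMyc+lateCD23int and 66258, 35333, 46290.0 and 31546 in cMyc+lateCD23lo. They were 59760.3, 43661, 58726 and 60313 in cMyc+prePB and 69619.9, 63416, 59028 and 45452 in cMyc+early. The cMyc+lateCD23int libraries were all above those of cMyc+prePB, and the same 4 values overlapped with cMyc+lateCD23lo only through the library of the latter numbered 1. The log2 fold change of cMyc+lateCD23int over cMyc+lateCD23lo was 0.78 (95% interval 0.34 to 1.21; limma adjusted p = 0.544, unadjusted 0.00151), and it was positive in 4 of 4 same-numbered pairs. In cMyc+early against cMyc+lateCD23lo it was 0.45 (0.01 to 0.88; adjusted p = 0.467), also in 4 of 4. Although its unadjusted p was the lowest of the 60, *Cd83* did not pass the threshold adjusted over all genes of that comparison, in which 0.008% of the tested genes did.

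*Slamf1* (ENSMUSG00000015316, GRCm38 chr1:171767127-171801184, forward strand) also had its lowest mean in cMyc+lateCD23lo, but 1 library there stood apart. Its normalized counts were 4478, 1401, 1747 and 1407 in cMyc+lateCD23lo and 5345, 4223, 3677 and 2583 in cMyc+lateCD23int. In cMyc+prePB they were 3165, 3199, 4277 and 2829, and in cMyc+early 4182, 3832, 3177 and 2222. The cMyc+lateCD23lo libraries numbered 2 to 4 were below every other library of the 16, whereas that numbered 1 was among the highest. The log2 fold changes over cMyc+lateCD23lo were 0.95 for cMyc+lateCD23int (unadjusted p = 0.00773, adjusted 0.699 by limma), 0.72 for cMyc+early (adjusted p = 0.44) and 0.75 for cMyc+prePB (adjusted p = 0.338). Without the library of cMyc+lateCD23lo numbered 1, they were 1.34, 1.11 and 1.14, with adjusted p-values of 0.188, 0.0703 and 0.0666. With all 4 libraries numbered 1 left out, a choice made after the data were seen, *Slamf1* was 1.16 higher in cMyc+prePB (adjusted p = 0.031), the one pairwise call that this reduced set gave among the 10 genes. Over all genes, the reduced set called 204 in cMyc+prePB against cMyc+lateCD23lo, where the main fit called 33.

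*Cd86* (ENSMUSG00000022901, GRCm38 chr16:36603869-36666081, reverse strand), a ligand of CD28 and part of the gate against DZ cells, varied widely within each subpopulation. Values were 10592, 6516, 7457 and 6709 in cMyc+prePB and 12142, 8495, 8295 and 6527 in cMyc+early. They were 19009, 10771, 9714 and 9145 in cMyc+lateCD23int and 14727, 6066, 8469 and 5881 in cMyc+lateCD23lo. The library numbered 1 was the highest in every subpopulation, and all subpopulations overlapped. The largest of its 6 differences was between cMyc+prePB and cMyc+lateCD23int, -0.60 on the log2 scale (95% interval -1.19 to -0.01; limma adjusted p = 0.561), with cMyc+prePB lower in 4 of 4 same-numbered pairs. Between cMyc+early and cMyc+lateCD23lo the difference was 0.08 with an interval of -0.51 to 0.68.

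*Cd80* (ENSMUSG00000075122, GRCm38 chr16:38455561-38496335, forward strand), the other B7 ligand, had the lowest level per kb of the 10 genes. In normalized counts it stood at 67.7, 95.1, 55.0 and 62.2 in cMyc+prePB and 1.99, 29.5, 15.6 and 32.5 in cMyc+lateCD23int. It stood at 2.10, 59.3, 128 and 24.4 in cMyc+early and 45.3, 28.1, 49.95 and 46.9 in cMyc+lateCD23lo. The cMyc+prePB libraries lay above all those of cMyc+lateCD23int and of cMyc+lateCD23lo, whereas cMyc+early spanned nearly the whole range. The libraries of cMyc+early and cMyc+lateCD23int numbered 1 were under the floor of 3 reads. The log2 fold change of cMyc+prePB over cMyc+lateCD23int was 2.21 (95% interval 0.13 to 4.30; limma adjusted p = 0.527), and edgeR gave an unadjusted p of 0.0764. Without the library of cMyc+lateCD23int numbered 1, which had 2 reads, it was 1.44 (limma adjusted p = 0.874). Between these subpopulations, *Cd86* had the lower mean and *Cd80* the higher mean in cMyc+prePB, neither past the adjusted threshold.

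*Icosl* (ENSMUSG00000000732, GRCm38 chr10:78069302-78083913, forward strand), whose product engages ICOS on helper T cells, had its lowest mean in cMyc+prePB. Its normalized counts were 168, 241, 440.0 and 50.5 in cMyc+prePB and 666, 818, 413 and 384 in cMyc+early. They were 463, 298, 996 and 347 in cMyc+lateCD23int and 483, 328, 188 and 93.8 in cMyc+lateCD23lo. Only the library of cMyc+prePB numbered 3 reached the range of cMyc+early. The log2 fold change of cMyc+prePB against cMyc+early was -1.64 (95% interval -2.89 to -0.39; limma adjusted p = 0.43), with cMyc+prePB lower in 3 of 4 same-numbered pairs. Against cMyc+lateCD23int it was -1.42 (-2.67 to -0.17; adjusted p = 0.497), lower in 4 of 4. Without the library of cMyc+prePB numbered 4, the lowest of the 16, these values were -1.05 and -0.84 (limma adjusted p = 0.764 and 0.824). *Icosl* was also lower in cMyc+lateCD23lo than in cMyc+early in 4 of 4 pairs, at 1.23 in the direction of cMyc+early (unadjusted p = 0.0532, adjusted 0.487).

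The ligands of PD-1 are encoded side by side on chromosome 19, *Cd274* (ENSMUSG00000016496) at chr19:29367455-29388095, forward strand and *Pdcd1lg2* (ENSMUSG00000016498) at chr19:29410919-29471161, forward strand of GRCm38, with 22.8 kb between them. Their start regions, 250 bases before to 50 after the start in RefSeq on GRCm38.p6, are shown because these neighboring genes encode ligands of the same receptor; capitals mark letters that matched a motif searched on both strands.
*Cd274*, chr19:29367188-29367487, forward strand: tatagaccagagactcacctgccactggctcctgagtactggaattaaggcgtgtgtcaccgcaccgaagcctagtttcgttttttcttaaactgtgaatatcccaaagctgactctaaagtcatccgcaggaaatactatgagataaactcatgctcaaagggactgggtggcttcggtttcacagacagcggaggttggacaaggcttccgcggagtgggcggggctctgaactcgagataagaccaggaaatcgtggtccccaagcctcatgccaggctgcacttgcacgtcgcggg
*Pdcd1lg2*, chr19:29410669-29410968, forward strand: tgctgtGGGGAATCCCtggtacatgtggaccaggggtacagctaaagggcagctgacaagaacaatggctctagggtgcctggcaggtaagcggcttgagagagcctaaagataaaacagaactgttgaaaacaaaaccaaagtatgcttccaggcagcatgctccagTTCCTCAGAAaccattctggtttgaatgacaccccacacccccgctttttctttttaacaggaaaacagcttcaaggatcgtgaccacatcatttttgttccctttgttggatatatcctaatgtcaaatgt
The motifs were the NF-κB consensus, held by 8.46% of the 32851 RefSeq start regions, GAAA followed by GAAA after any 2 bases (an interferon-responsive core, 3.44%), and TTC followed by GAA after any 3 bases (a STAT spacing, 8.3%) or after any 4 (the wider STAT6 spacing, 6.95%). The *Pdcd1lg2* window held an NF-κB match from base 7 and a match to the wider STAT6 spacing from base 169, and the *Cd274* window held none of the 4. Of the 10 genes, 6 were in the table of start regions. Among the other 4 of these, the NF-κB consensus was matched in *Icosl*, the STAT6 spacing in *Slamf1*, the shorter STAT spacing in *Fas* and none in *Cd80*. A match describes letters only and is not a measured binding site.

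*Pdcd1lg2* was lowest in cMyc+prePB. Its normalized counts were 0, 12.4, 58.6 and 83.0 in cMyc+prePB and 259.9, 132, 162 and 169.7 in cMyc+early. They were 212, 156, 129 and 75.3 in cMyc+lateCD23int and 123, 31.8, 58.1 and 91.8 in cMyc+lateCD23lo. Every cMyc+early library was above every library of cMyc+prePB and of cMyc+lateCD23lo, and the library of cMyc+prePB numbered 1 had no read. The log2 fold change of cMyc+prePB against cMyc+early was -3.45 (95% interval -5.54 to -1.36; limma adjusted p = 0.243, unadjusted 0.00271), the largest among the 60. On the linear scale the means were 38.5 ± 38.9 and 181 ± 55.2 (SD, n = 4), and edgeR gave -2.23 on the reads. Against cMyc+lateCD23int the fold change was -3.07 (limma adjusted p = 0.343) and against cMyc+lateCD23lo -2.09 (adjusted p = 0.393), lower in 3 of 4 pairs each. Without the library at 0, the 3 values were -2.12, -1.73 and -0.76. *Cd274* showed no such order. Its normalized counts were 29.0, 148, 159 and 79.4 in cMyc+prePB, 183, 109.7, 24.1 and 89.4 in cMyc+early, 38.8, 48.9, 37.4 and 59.5 in cMyc+lateCD23int and 101, 42.1, 72.4 and 3.06 in cMyc+lateCD23lo. All 4 subpopulations overlapped for *Cd274*, and cMyc+prePB differed from cMyc+early by 0.08 with an interval of -1.82 to 1.98. Whether the differences of *Pdcd1lg2* and *Cd274* differ from each other was not tested.

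*Cd69* (ENSMUSG00000030156, GRCm38 chr6:129267325-129275436, reverse strand) encodes the antigen by which cMyc+prePB was sorted as CD69hi. Its normalized counts were 5346, 2862, 3165 and 2439 in cMyc+prePB and 4579.9, 2239.7, 3817 and 2002 in cMyc+early. They were 6126, 4039, 2761 and 2122 in cMyc+lateCD23int and 3686, 1794, 2178 and 1451 in cMyc+lateCD23lo. The libraries of cMyc+prePB were within the range of cMyc+lateCD23int. The log2 fold change of cMyc+prePB over cMyc+early was 0.15 (95% interval -0.59 to 0.89; limma adjusted p = 0.961), over cMyc+lateCD23int -0.07 (-0.82 to 0.67) and over cMyc+lateCD23lo 0.62 (-0.12 to 1.37; adjusted p = 0.471). The sign of the first turned to -0.08 without the library of cMyc+prePB numbered 1, and to -0.04 without that of cMyc+early numbered 4. A higher *Cd69* transcript level in the CD69hi cells was therefore not detected, while a difference of up to 0.89 from cMyc+early lies within the interval. The gate acted on the surface protein.

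*Fas* (ENSMUSG00000024778, GRCm38 chr19:34290666-34327772, forward strand), the gene of the CD95 gate common to all libraries, gave 4481, 4147, 4249 and 3458 normalized counts in cMyc+prePB and 6259, 3354, 4675 and 3713 in cMyc+early. They were 8287, 5510.3, 4141 and 4333 in cMyc+lateCD23int and 6604, 3685, 4603 and 3489.9 in cMyc+lateCD23lo. All subpopulations overlapped, and the F test adjusted p was 0.793 in limma. Its 6 log2 differences lay between -0.40 (cMyc+prePB against cMyc+lateCD23int, interval -0.90 to 0.11) and 0.27. Of the 9 genes listed for the Fas pathway, 8 were tested and 0 passed the adjusted threshold in any comparison. In the F test, 2 had an unadjusted p-value under 0.05 by limma (10.2% of all tested genes) and 2 by edgeR (8.89%). By limma these were *Bid*, a proapoptotic substrate of caspase-8, and *Cflar*, which encodes the caspase-8 inhibitor cFLIP. The means of *Bid* over cMyc+prePB, cMyc+early, cMyc+lateCD23int and cMyc+lateCD23lo were 8967 ± 534, 11631 ± 873, 10996 ± 893 and 9479 ± 722 (F test adjusted p = 0.34). Those of *Cflar* were 1688 ± 389.7, 1417 ± 411, 1092 ± 146 and 1051 ± 105 in that order (adjusted p = 0.419).

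**Figure D2:**
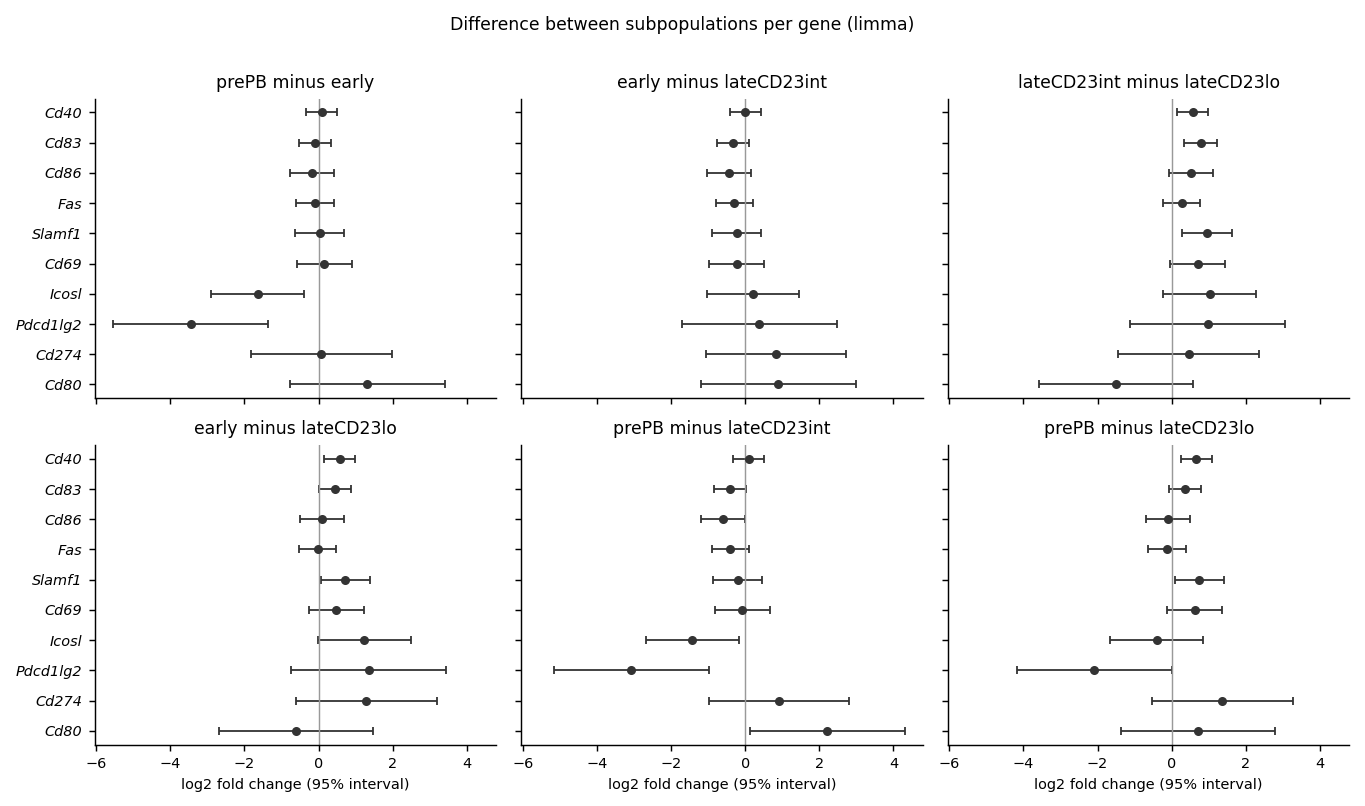
Log2 fold changes of the 10 genes in the 6 pairwise comparisons (horizontal axes, limma on log2(normalized count + 1)); points are estimates, bars 95% intervals and each title names the direction. In the panels against cMyc+lateCD23lo, *Cd40* and *Slamf1* lie to the right of 0, and *Pdcd1lg2* has the largest difference, -3.45 in cMyc+prePB against cMyc+early.

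By comparison, the 10 genes divided as follows; "uniform" is used here for a gene whose 4 same-numbered pairs all differ in the same direction. In cMyc+prePB against cMyc+early, 5 were on the higher and 5 on the lower side, 0 passed the adjusted threshold in limma (0.192% of all tested genes did) and 2 had an unadjusted p-value under 0.05 (8.58% of all). *Pdcd1lg2* was the one gene there whose libraries did not overlap (2.18% of all genes had all cMyc+early libraries higher) and the one that was uniform (8.77% of all). In cMyc+early against cMyc+lateCD23int, 0 passed the adjusted or the unadjusted threshold (0.008% and 3.71% of all). The median log2 difference there was -0.108 over the 10 genes and -0.028 over all tested genes, and *Cd86*, *Cd83* and *Slamf1* were uniform, higher in cMyc+lateCD23int (5.53% of all). In cMyc+prePB against cMyc+lateCD23int, 7 were on the lower side with a median of -0.299, 0 passed the adjusted threshold (0.144% of all) and 4 the unadjusted one (8.77% of all). There, *Cd83* had all cMyc+lateCD23int libraries higher (2.75% of all) and *Cd80* all cMyc+prePB libraries higher (2.46% of all). *Cd83*, *Cd86* and *Icosl* were uniform toward cMyc+lateCD23int (10.7% of all) and *Cd80* toward cMyc+prePB (9.8% of all).

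Against cMyc+lateCD23lo, most of the 10 genes were on the higher side by limma in each of the other subpopulations. By edgeR the side differed for *Cd274* and *Cd80*, low genes with libraries at or under 3 reads. *Cd274* in cMyc+lateCD23int was at 0.45 by limma and -0.25 by edgeR. *Cd80* in cMyc+early was at -0.61 by limma and 0.34 by edgeR. In cMyc+lateCD23int, 9 of the 10 were on the higher side by limma, *Cd80* being the exception, with a median log2 fold change of 0.634 against 0.016 over all genes. Of the 10, 0 passed the adjusted threshold (0.008% of all), 3 had an unadjusted p-value under 0.05 (6.28% of all), 1 had no overlap (*Cd40*, 1.91% of all) and 5 were uniform (8.13% of all). In cMyc+early, 8 were on the higher side with a median of 0.526, 0 passed the adjusted threshold (0.28% of all) and 3 had an unadjusted p-value under 0.05 (10.3% of all). Of these, 1 had no overlap (*Pdcd1lg2*, 2.86% of all) and 5 were uniform (10.6% of all). In cMyc+prePB, 6 were on the higher side with a median of 0.492, 0 passed (0.264% of all) and 3 had an unadjusted p-value under 0.05 (12.7% of all). There, 2 had no overlap (*Cd40* and *Cd80*, 3.01% of all) and 3 were uniform (*Cd40*, *Cd69* and *Cd80*, 11.5% of all). By edgeR, 0 of the 10 passed the adjusted threshold in any comparison, where the shares of all genes were 0.064%, 0.008% and 0.088% in cMyc+prePB against cMyc+early, cMyc+early against cMyc+lateCD23int and cMyc+prePB against cMyc+lateCD23int and 0.008%, 0.184% and 0.248% in cMyc+lateCD23int, cMyc+early and cMyc+prePB against cMyc+lateCD23lo. Those with an unadjusted p-value under 0.05 by edgeR numbered 2 in cMyc+prePB against cMyc+early (7.76% of all genes), 0 in cMyc+early against cMyc+lateCD23int (3.54%) and 2 in cMyc+prePB against cMyc+lateCD23int (7.83%). Against cMyc+lateCD23lo they numbered 3 for cMyc+lateCD23int (6.21%), 1 for cMyc+early (9.93%) and 1 for cMyc+prePB (12%).

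In several of the abundant genes the libraries numbered 1 were the high ones. For *Cd86*, *Cd69* and *Fas*, the library numbered 1 was the highest of its subpopulation in all 4 subpopulations, as it was for 4.23% of all tested genes. It was the highest in at least 3 of 4 for *Cd83*, *Pdcd1lg2* and *Slamf1* too, so that 6 of the 10 genes were in this class against 15.3% of all genes. The ratio of this library to the median of the other 3 was 1.46 to 2.43 for *Cd86*, 1.87 to 2.22 for *Cd69* and 1.08 to 1.91 for *Fas*. The share of reads on mitochondrial genes was also highest in the library numbered 1 of each subpopulation, at 1.83%, 1.87%, 2.95% and 2.26% against 1.34% to 1.90% in the other 12. Its part in these values was not tested. With the 4 libraries numbered 1 left out, the differences over cMyc+lateCD23lo in cMyc+lateCD23int were 0.48 for *Cd40* and 0.86 for *Cd83*.

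**Figure D3:**
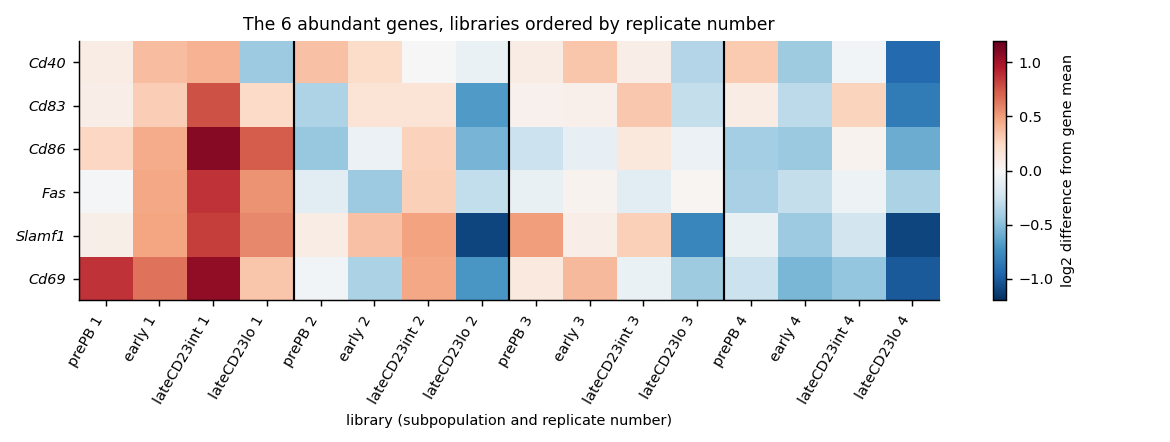
Log2 difference of 6 abundant genes from each gene's mean over the 16 libraries (color scale), with libraries (columns) ordered by replicate number and black lines between numbers. The 4 libraries numbered 1 are above the mean for most of the 6 genes, with *Cd40* in cMyc+lateCD23lo the clearest exception, and the cMyc+lateCD23lo libraries numbered 2 and 4 below it.

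The genes whose values over the 16 libraries were most like those of *Cd86* were the MHC class II genes *H2-Ob* (Pearson r = 0.954) and *H2-Aa* (0.948), followed by *Cd52* (0.912). *Fas* was most like *Erp44* (0.92), *Tmem108* (0.914) and *Cd86* (0.906), and *Slamf1* most like *Cd83* (0.865), the MHC class II chaperone gene *H2-DMa* (0.861) and *Lyst* (0.849). For *Cd83* they were *Bcl2a1b* (0.895), *Mif4gd* (0.886) and *Bcl2a1d* (0.866). *Bcl2a1b* and *Bcl2a1d* are near-identical copies of an antiapoptotic gene, between which counting may split reads. For *Cd40* they were *Gimap4* (0.888), *Ifi35* (0.857) and *BC065397* (0.814), and for *Cd69* *Zfp973* (0.89), *Zfp965* (0.846) and *Gpr18* (0.843). These coefficients describe 16 libraries that share subpopulations and replicate numbers. They are the highest among all tested genes, and the level that chance gives was not computed. The 4 low genes had coefficients of 0.861 to 0.901 with their nearest genes, which include several of low counts. Spearman coefficients were lower for some pairs, at 0.624 for *Pdcd1lg2* with *Asb7*, 0.568 for *Cd80* with *Gstt3* and 0.671 for *Slamf1* with *Cd83*. For others they were close, at 0.938 for *Cd86* with *H2-Ob*. Among the 10 genes themselves, *Cd86* and *Cd83* had an r of 0.825, and the PD-1 ligands *Cd274* and *Pdcd1lg2* one of 0.0909.

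Of 22 other surface molecules and adaptors of the contact between T and B cells, 21 were in the table and 17 were tested. In the F test 0 passed the adjusted threshold and 7 had an unadjusted p-value under 0.05, by limma and by edgeR. Over all tested genes the unadjusted shares were 10.2% by limma and 8.89% by edgeR. In the pairwise comparisons 1 was called, *Tnfsf9*, which encodes 4-1BBL, a costimulatory ligand of the TNF family. It had 3400.5, 1755, 2328 and 1384 normalized counts in cMyc+prePB and 1108, 734, 716 and 622 in cMyc+early, and these do not overlap. It rose by 1.43 on the log2 scale from cMyc+early to cMyc+prePB (95% interval 0.84 to 2.03; limma adjusted p = 0.045), and edgeR gave an adjusted p of 0.0702. The call was lost when any 1 of 13 libraries was left out, with adjusted p-values of up to 0.136, and kept only without that numbered 4 of cMyc+prePB or that numbered 1 of cMyc+lateCD23int or of cMyc+lateCD23lo. *Cd70*, which encodes the ligand of CD27, had a mean of 304 ± 34.1 for cMyc+prePB, followed by 172 ± 47.6 for cMyc+lateCD23lo, 101 ± 73.2 for cMyc+early and 75.5 ± 34.7 for cMyc+lateCD23int (limma F test adjusted p = 0.18). In contrast to *Pdcd1lg2* and *Icosl*, both TNF family ligands had their highest mean in cMyc+prePB. For *Tnfsf9* the means were 1251 ± 320 in cMyc+lateCD23int and 1583 ± 454 in cMyc+lateCD23lo, and both overlapped with cMyc+prePB. Against these, cMyc+prePB was not called (limma adjusted p = 0.428 and 0.52), so that the call sets it apart from cMyc+early only. The contrast between the ligands was not tested.

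**Figure D4:**
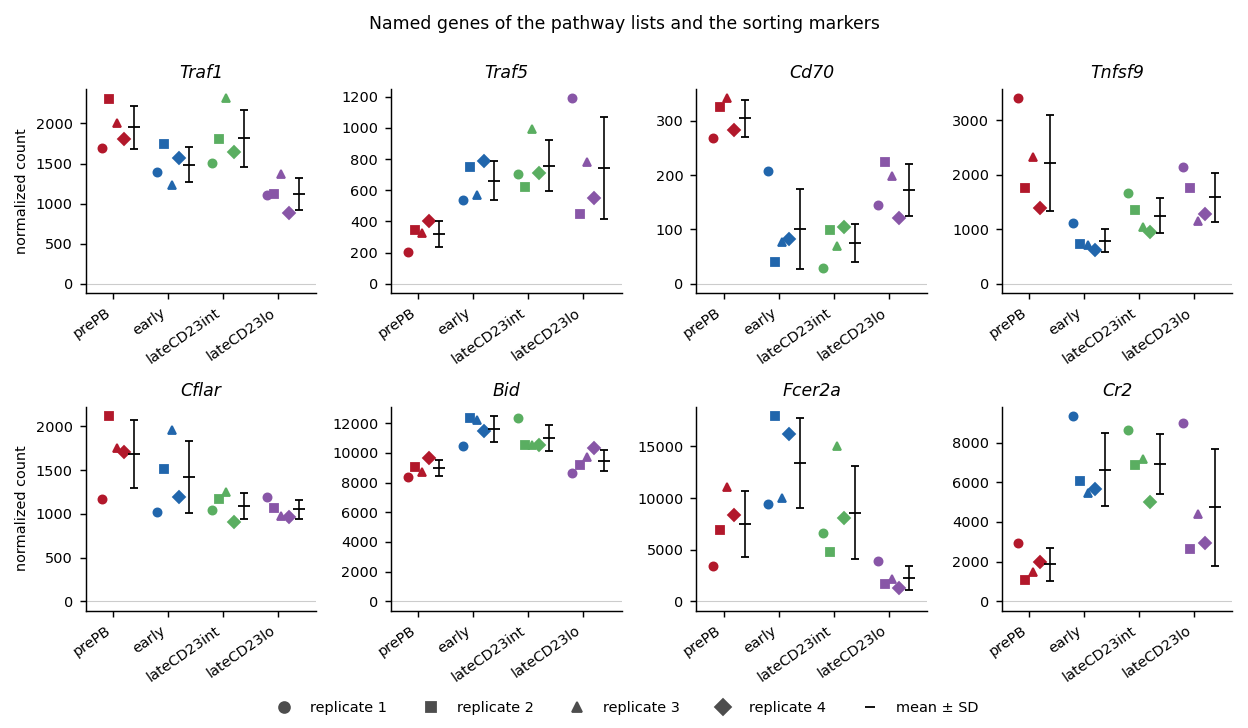
Normalized counts (vertical axes) of genes named from the lists of CD40 signalling, T-B contact and Fas pathway and of the sorting markers, per library, with the symbol marking the replicate number and the bar the mean ± SD. *Tnfsf9* in cMyc+prePB lies above cMyc+early in all libraries, *Fcer2a* is lowest in cMyc+lateCD23lo and *Cr2* lowest in cMyc+prePB.

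Of the genes that encode the antigens of the gate, *Fcer2a* and *Cr2* were called. *Fcer2a*, which encodes CD23, was at 13398 ± 4314 in cMyc+early and 2274 ± 1172 in cMyc+lateCD23lo, which differ by 2.63 on the log2 scale (limma adjusted p = 0.00434). It was not called between cMyc+early and cMyc+lateCD23int, at 0.72. Nor was it called between cMyc+lateCD23int and cMyc+lateCD23lo, at 1.91 (limma adjusted p = 0.441). *Cr2*, which encodes CD21/35, did not pass the threshold between the subpopulations gated on CD21/35, with cMyc+early at -0.07 against cMyc+lateCD23int (limma adjusted p = 1) and 0.63 against cMyc+lateCD23lo (adjusted p = 0.534). It was lower in cMyc+prePB, which was gated on CD69, with log2 fold changes of -1.90 against cMyc+early (adjusted p = 0.0269) and -1.97 against cMyc+lateCD23int (adjusted p = 0.0174), where edgeR gave 0.0702 and 0.062. In limma the first of these calls was lost when any 1 of 7 libraries was left out (adjusted p up to 0.102) and the second when any 1 of 5 was (up to 0.0873). The 10 GC B cell markers summed to between 96606 and 253850 normalized counts per library, and 0 of them passed the adjusted threshold by limma or edgeR. In the F test, 5 had an unadjusted p-value under 0.05 by limma (10.2% of all tested genes) and 5 by edgeR (8.89%). The lowest p-values in the F test were those of *Cd22* (adjusted p = 0.284) and *Bcl6* (0.419). Of the 6 plasma cell markers, *Jchain* was lower in cMyc+early than in cMyc+lateCD23lo (log2 -1.44, limma adjusted p = 0.0394, edgeR 0.0639). This call was lost when any 1 of 10 libraries was left out (up to 0.158). *Prdm1*, at most 133 normalized counts, had its lowest mean in cMyc+early (2.74 ± 3.59, 3 libraries at or under 3 reads). It averaged 35.2 ± 55.9 for cMyc+prePB, 80.7 ± 41.9 for cMyc+lateCD23int and 82.9 ± 51.9 for cMyc+lateCD23lo. Against the latter 2, cMyc+early stood at -4.76 and -4.49 on the log2 scale (limma adjusted p = 0.545 and 0.0893), not called. Of the 5 plasma cell markers tested, 2 had an unadjusted p-value under 0.05 in the limma F test and 3 by edgeR. The 6 summed to 37257 to 111293 in cMyc+prePB, 23488 to 30149 in cMyc+early, 31588 to 59105 in cMyc+lateCD23int and 56149 to 90119 in cMyc+lateCD23lo, and the part of such cells in the values of the 10 genes was not tested.

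Transcripts of the partner cells were scarce. Of the 7 partner molecules on T cells, *Cd40lg* was at 0 in 8 of 16 libraries, *Il21* in 14 and *Cd28* in 13, and 4 of the 7 were tested with 0 passing the adjusted threshold. In the F test, 0 of these had an unadjusted p-value under 0.05 by limma (10.2% of all tested genes) and 3 by edgeR (8.89%). *Pdcd1*, the receptor of both PD-1 ligands, had a mean of 216 ± 201 over the cMyc+prePB and 6.84 ± 11.7 over the cMyc+early libraries (limma F test adjusted p = 0.502), and *Ctla4* ranged from 0 to 215 over the libraries. The 10 T cell markers summed to 4612 to 8369 normalized counts, almost all from *Lck* and *Cd2*, which B cells can express. Without these, a choice made after their values were seen, the sums were 60.2 to 251 in cMyc+prePB, 37.2 to 73.1 in cMyc+early, 106 to 182 in cMyc+lateCD23int and 65.3 to 148 in cMyc+lateCD23lo. Of the defining genes, *Cd3e* and *Cd4* were each at 0 in 13 libraries and *Cd3g* in 11. *Cd3d* was at 0 in only 1 library, and *Trac* was above the floor in all 16, at 11.6 to 110 normalized counts. The 8 myeloid and dendritic cell markers summed to 530 to 1195 in cMyc+prePB, 807 to 1068 in cMyc+early, 702 to 1373 in cMyc+lateCD23int and 867 to 1827 in cMyc+lateCD23lo, mostly *Flt3* and *Lyz2*, with *Cd14* at or under 3 reads in all 16 libraries. Of the T cell and the myeloid markers, 0 passed the adjusted threshold by limma or edgeR in any comparison, and in the F test 1 and 0 had an unadjusted p-value under 0.05 by limma and 2 and 1 by edgeR. T cells and dendritic cells express several of the 10 genes. CD43+ cells were removed and B220+ CD38low CD95+ cMycGFP+ cells were sorted, but how many T cells and dendritic cells remained was not measured. The part of any that remained in the values was not tested.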

How the data were processed

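Total RNA of the 16 libraries, 4 per subpopulation, was sequenced on libraries made with the NEBNext Single Cell/Low Input kit. The submitters' processing notes name Trimmomatic 0.36, STAR 2.5.2a, RSEM 1.2.31, DESeq2 1.20.0, R 3.5.1 and GRCm38, without roles. The authors deposited, for each gene and library, a signal, the normalized count. They were whole multiples of a library's smallest value for 100% of values (tolerance 0.01), so that reads were recovered, at 19812080 to 25795815 per library. Libraries were assigned by the column names in the labels.

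Here, limma 3.58.1 in R 4.3.3 was fitted to log2(normalized count + 1) of 12505 genes (mean of at least 10 over the libraries), with 1 mean per subpopulation, a trended prior and Benjamini-Hochberg adjustment (threshold 0.05) over all tested genes. Fold changes are on this scale, on which the pseudocount draws the changes of low genes toward 0 while 1 library near 0 can move a mean far, as for *Pdcd1lg2* and *Cd80*, whose fold changes between cMyc+prePB and cMyc+early or cMyc+lateCD23int came out larger than by edgeR. Genes and lists were chosen with earlier results of these data known. In each list, the genes with an adjusted F test p under 0.05 were named, or otherwise the 2 with the lowest p, and for each of the 10 genes the 3 with the highest Pearson correlation. Other settings changed the pseudocount (0.5, 5), the filter (none, 50), the scaling (equal totals, quantiles), the prior (no trend), the samples (each library left out, the compared groups alone) or added the replicate block. After the data were seen, quasi-likelihood tests in edgeR 4.0.16 on the reads, blocked or not, and a fit without the libraries numbered 1 were added. Limma and edgeR were tested on simulated data. Coordinates and exon lengths come from GENCODE on GRCm38, and start regions from RefSeq on GRCm38.p6.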

Additional observations from a re-analysis of the deposited data

Results flagged for a closer look

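Of the 40 sets of 4 libraries (10 genes in 4 subpopulations), 3 held a library whose distance to the nearest other, divided by the range of the 4, was above Dixon's 95% critical value. Chance gives about 1 in 20 such sets. *Cd86* in cMyc+lateCD23int was at 19009 normalized counts in the library numbered 1 and next at 10771 (ratio 0.835). *Cd83* in cMyc+prePB was at 43661 in the library numbered 2, below the next at 58726 (ratio 0.905). *Slamf1* in cMyc+lateCD23lo was at 4478 in the library numbered 1 and next at 1747 (ratio 0.887).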

How the results depend on the processing

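The number of the 10 genes called stayed at 0 in the F test and in each pairwise comparison under all alternatives but 2. With the replicate block, 1 was called between cMyc+prePB and cMyc+lateCD23int (*Cd86*, -0.60, limma adjusted p = 0.0484). There the block called 121 genes in all, against 18 in the main fit. With the 4 libraries numbered 1 left out together, 1 was called between cMyc+prePB and cMyc+lateCD23lo (*Slamf1*, 1.16, adjusted p = 0.031). There 204 genes were called in all, against 33 in the main fit. Leaving out each library in turn gave 0 calls throughout, and the lowest adjusted p was 0.05, rounded, for *Slamf1* in the F test. *Cd69* in cMyc+prePB against cMyc+early changed sign when 1 library was left out, with values from -0.0847 to 0.355 and with -0.0427 without the library of cMyc+early numbered 4. The fold change of *Pdcd1lg2* in cMyc+prePB against cMyc+early ran from -3.72 to -1.93 over the other settings. Same-numbered libraries did not all deviate together (24 pairs, correlations of deviations from -0.129 to 0.174, mean 0.0509, 5 over 0.1). Of the 16 libraries, 6 correlated best with their own number in every other subpopulation. The numbers were not used as pairs in the main fit, because the labels do not say what a number marks. Whether they pair the samples was not settled. The library numbered 1 was the highest in all 4 subpopulations for 4.23% of all tested genes, and the block raised the F test calls from 51 to 173. If the numbers mark pairs, the main fit counts differences between numbers as spread. The block changed no call among the 10 genes other than that of *Cd86*.

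Counts over all genes moved more. The F test called 51 genes, 31 without the filter, 25 without the trend, 173 with the block, 29 by edgeR and 129 by edgeR with the block. In cMyc+prePB against cMyc+early the 24 calls became 65 with the block, 4 without the filter, 12 without the trend, 0 with only the groups compared, 8 by edgeR and 54 by edgeR with the block. In cMyc+early against cMyc+lateCD23lo the 35 became 90 with the block, 20 with only the groups compared, 23 by edgeR and 63 by edgeR with the block. In cMyc+prePB against cMyc+lateCD23int the 18 became 121 with the block, 9 without the filter and without the trend, 29 with quantile normalization, 8 with only the groups compared, 11 by edgeR and 94 by edgeR with the block. In cMyc+prePB against cMyc+lateCD23lo the 33 became 192 with the block, 21 without the filter, 13 with only the groups compared, 142 by edgeR with the block and 204 without the libraries numbered 1. In the remaining comparisons 0 to 2 genes were called. Leaving out 1 library gave 31 to 68 calls in the F test and 3 to 153 in the 4 comparisons with more than 1 call. The cause of these changes was not tested. The calls of *Tnfsf9*, *Cr2* and *Jchain* were also lost without the filter, without the trend and by edgeR. With only the groups compared, those of *Tnfsf9* and of *Cr2* in cMyc+prePB against cMyc+early were lost too (limma adjusted p = 0.192 and 0.0979). Of the 12 settings other than leaving out 1 library, *Tnfsf9* and this *Cr2* call were lost in 4. The *Cr2* call against cMyc+lateCD23int and that of *Jchain* were lost in 3. The 95% intervals of *Cd80*, *Cd274* and *Pdcd1lg2* span about 4 on the log2 scale, so that moderate differences in them could not be told from the spread between libraries. Depth limits the libraries at or under 3 reads, 2 for *Cd80* and 1 each for *Cd274* and *Pdcd1lg2*, and its part in the spread of the others was not tested.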
